A study of Mus musculus with 60 samples.

Results

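Subcutaneous white adipose tissue (scWAT) was compared with visceral white adipose tissue (vWAT) of the same 5 mice, all of them fed a high-fat diet (HFD) and given running wheels. The 10 libraries were picked by tissue, diet, training and the animal code that both depots of a mouse share, out of 60 libraries in the series, and no measured value entered the choice. The mice were C57BL/6JN, 12 weeks old, had eaten a diet with 60% of its energy as fat for 6 weeks, and had run voluntarily in wheels during the last 3 of those weeks. Food was withdrawn for 6 h and the wheels stood locked for 24 h before the tissues were taken. The other groups of 5 mice, used for comparison, ate the same diet without wheels (HFD sedentary), or a standard diet with 10% of its energy as fat with wheels (chow trained) or without (chow sedentary). All 4 groups shared strain, age, fast and collection, and each mouse gave 1 library per depot. The sources used here state neither the sex of the mice nor the distance run nor the anatomical site of the visceral depot.

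White fat stores triglyceride in adipocytes, which sit among progenitor cells, vessels, nerves and immune cells in a collagen-rich matrix. Subcutaneous fat of mice can form beige adipocytes, which burn fatty acids to make heat through the uncoupling protein Ucp1. Visceral fat lies in the abdominal cavity under a layer of mesothelial cells, and in obesity it is known as a site where macrophages gather. Developmental regulators of the Hox and T-box families keep a record of body position in adult fat cells and their progenitors.

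The libraries were 3′ digital gene expression RNA-seq, which reads the 3′ end of transcripts, and the values are estimated counts rounded to whole numbers. The 10 libraries held between 587956 and 699712 counts, so that a gene with 0 counts could still be present at up to 4.29 to 5.10 counts per 1000000 (CPM), counting error only. On the first principal component, which held 29.2% of the variance, all 5 vWAT libraries lay below 0 and all 5 scWAT libraries above it. Both depots expressed the adipocyte hormone Adipoq, at 5760 to 7688 CPM in scWAT and 6295 to 9097 CPM in vWAT. The mesothelial markers Msln, Upk1b, Upk3b and Slpi had 0 reads in every scWAT library, whereas vWAT of animals 1 to 4 had between 10 and 34 reads of Upk3b and vWAT of animal 5 had 1. Reads from tissues other than fat were uneven. Intestine and pancreas markers summed to 25 to 182 reads in scWAT, 52 to 61 in vWAT of animals 1 to 3, and 601 and 491 in vWAT of animals 4 and 5. Skeletal muscle markers summed to 198 to 1549 reads in scWAT, 133 to 176 in vWAT of animals 1 to 3, and 2192 and 3421 in vWAT of animals 4 and 5. The epithelial markers Epcam, Krt8 and Krt18 peaked in vWAT of animal 2, at 21, 18 and 18 reads. They had 0 to 2 reads in vWAT of animals 1 and 3, 3 to 13 in animals 4 and 5, and at most 1 in any scWAT library. Krt8 and Krt18 are also on the mesothelial list. Liver markers summed to 744 to 1923 reads in scWAT and 1273 to 4578 in vWAT, with the highest sum in vWAT of animal 4. The median log2 difference of the 7 tested liver markers was 3.28, 2.13, -0.75, -4.42 and -3.03 in animals 1 to 5, so animals 1 and 2 had more in scWAT and the others more in vWAT. Within each depot the library codes of animals 1 to 3 are consecutive, as are those of animals 4 and 5, but scWAT and vWAT libraries share no stretch of codes, so depot and library stretch cannot be told apart. The part of these reads from other tissues in the results was not tested beyond the counts without certain libraries or animals given below.

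Of 6217 genes tested, 643 differed between the depots at an adjusted p below 0.05 (edgeR quasi-likelihood test with the animal as a block, Benjamini-Hochberg adjustment), which is 10.3% of the genes tested. Of these, 278 were higher in scWAT (4.47%) and 365 were lower (5.87%), and 184 differed by at least 1 on the log2 scale. The counts of called genes in each gene list below should be read against these shares of 4.47% and 5.87%. In 566 of the 643 genes the difference had the same direction in all 5 animals, against 1278 genes or 20.6% among all genes tested. In 371 the CPM ranges of the depots did not overlap, against 519 genes or 8.35% of those tested. The 4 libraries with most intestinal (intestine and pancreas marker) reads were scWAT of animals 1 and 2 and vWAT of animals 4 and 5. In scWAT of animals 1 and 2 these reads were mostly Fabp1 (150 and 112 reads). Fabp2 had 0 and 2 reads there, against 99 and 149 in vWAT of animals 4 and 5. Leaving these libraries out kept scWAT of animals 3 to 5 and vWAT of animals 1 to 3, so only animal 3 gave both depots. Without these libraries and without the animal block, 536 genes were called, 292 higher and 244 lower. Thus 54.5% of the 536 were higher, against 43.2% in the full comparison. Of the 536, 355 were also called in the full comparison, all in the same direction. Animals 1 to 3 alone gave 583 calls and animals 3 to 5 alone gave 177. In bulk tissue, fewer cells of a type and less RNA per cell cannot be told apart.

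**Figure D1:**
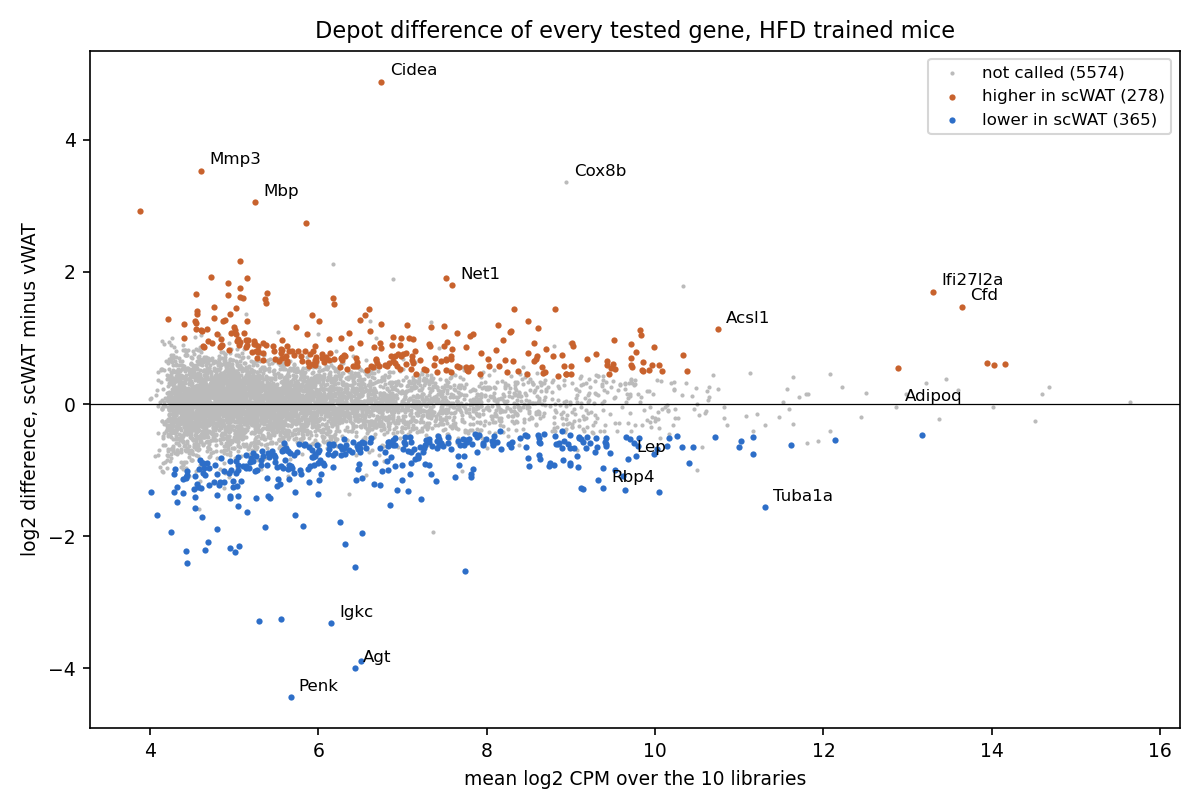
Depot difference of each of the 6217 tested genes, as the log2 difference of scWAT minus vWAT (vertical axis), against its mean log2 CPM over the 10 libraries (horizontal axis). Orange points are the 278 genes called higher in scWAT, blue points the 365 called lower and grey points the genes not called; Cidea lies highest among the named genes at 4.88 and Penk lowest at -4.44.

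The genes with the lowest adjusted p among those higher in scWAT came from several cell functions. Net1, which activates the small GTPase RhoA, had 308, 347, 182, 262 and 274 CPM in scWAT of animals 1 to 5 and 68.3, 116, 79.2, 69.0 and 74.8 CPM in vWAT. It was higher in scWAT of every animal, by 1.80 ± 0.16 on the log2 scale (estimate ± SE, adjusted p = 4.57e-07, edgeR). Slc1a3, a glutamate and aspartate transporter, had 343 to 514 CPM in scWAT and 104 to 210 CPM in vWAT (log2 difference 1.44). Trarg1, which regulates traffic of the glucose transporter GLUT4, had 197 to 262 CPM in scWAT and 93.3 to 128 CPM in vWAT (log2 difference 1.18). The carboxylesterase gene Ces1f (log2 difference 1.91) and the ubiquitin ligase subunit gene Fbxo21 (1.44) were also higher in scWAT of all 5 animals.

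Penk had the lowest adjusted p of all. It encodes proenkephalin, the precursor of opioid peptides. In scWAT of animals 1 to 5 it had 1.48, 5.72, 3.20, 3.34 and 4.57 CPM and in vWAT 50.1, 130, 110, 86.6 and 59.5 CPM. The ranges did not overlap, and the log2 difference was -4.44 ± 0.27 (adjusted p = 1.92e-09, edgeR). In scWAT of animals 1, 3, 4 and 5 Penk lay at or below the CPM that a count of 0 allows. The size of its difference is thus uncertain. Penk was called lower in scWAT in each of the other 3 groups of mice as well. Lower in scWAT of all 5 animals were also the alpha-tubulin gene Tuba1a (log2 difference -1.56), the antioxidant enzyme gene Prdx6 (-1.15), the chaperone gene Clu (-1.78, adjusted p = 0.143 in the fit of all 40 fat libraries), the prolactin receptor gene Prlr (-2.18) and Eepd1 (-1.27). Without the 4 libraries with most intestinal reads and without the animal block, the call of Tuba1a was lost (adjusted p = 0.148). It has close paralogs, so its count depends on how the authors' counting divided their reads. Rbm28, on chromosome 6 from 29123576 to 29165006 (mm10), was lower by 1.44 on the log2 scale, and the leptin gene Lep lies nearby on that chromosome, from 29060220 to 29073877.

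Adipocyte hormones split by depot. Cfd, which encodes the serine protease adipsin, had 15992, 15070, 20684, 21194 and 12571 CPM in scWAT and 6428, 3291, 11618, 9774 and 3888 CPM in vWAT of animals 1 to 5. The ranges did not overlap, and the log2 difference was 1.47 ± 0.19 (adjusted p = 4.92e-05, edgeR). Without the animal block the log2 difference was 1.33 and the call was lost (adjusted p = 0.0564). Nrg4, a growth factor released by fat, had 144 to 207 CPM in scWAT and 69.6 to 113 CPM in vWAT (log2 difference 1.00). In the other direction, Agt, the precursor of the vasoconstrictor angiotensin, had 19.2, 4.29, 1.60, 10.0 and 9.14 CPM in scWAT against 129, 158, 166, 202 and 93.5 CPM in vWAT, a log2 difference of -4.00 ± 0.34 (adjusted p = 1.63e-05, edgeR). Rbp4, the carrier of retinol in blood, had 251 to 521 CPM in scWAT and 675 to 1104 CPM in vWAT (log2 difference -1.27). Lep, the gene of the satiety hormone leptin, had 688, 563, 345, 454 and 737 CPM in scWAT and 885, 1169, 1149, 709 and 1122 CPM in vWAT. Leptin was lower in scWAT of each animal although the ranges overlapped (log2 difference -0.83 ± 0.16, adjusted p = 0.00276, edgeR). Adipoq (log2 difference -0.05, adjusted p = 0.913) and the resistin gene Retn (-0.40, adjusted p = 0.0822) did not pass the test. In all, 12 of 14 listed hormones and secreted factors were tested, with 2 higher and 4 lower, the fourth being Lpl, described with the lipid genes.

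**Figure D2:**
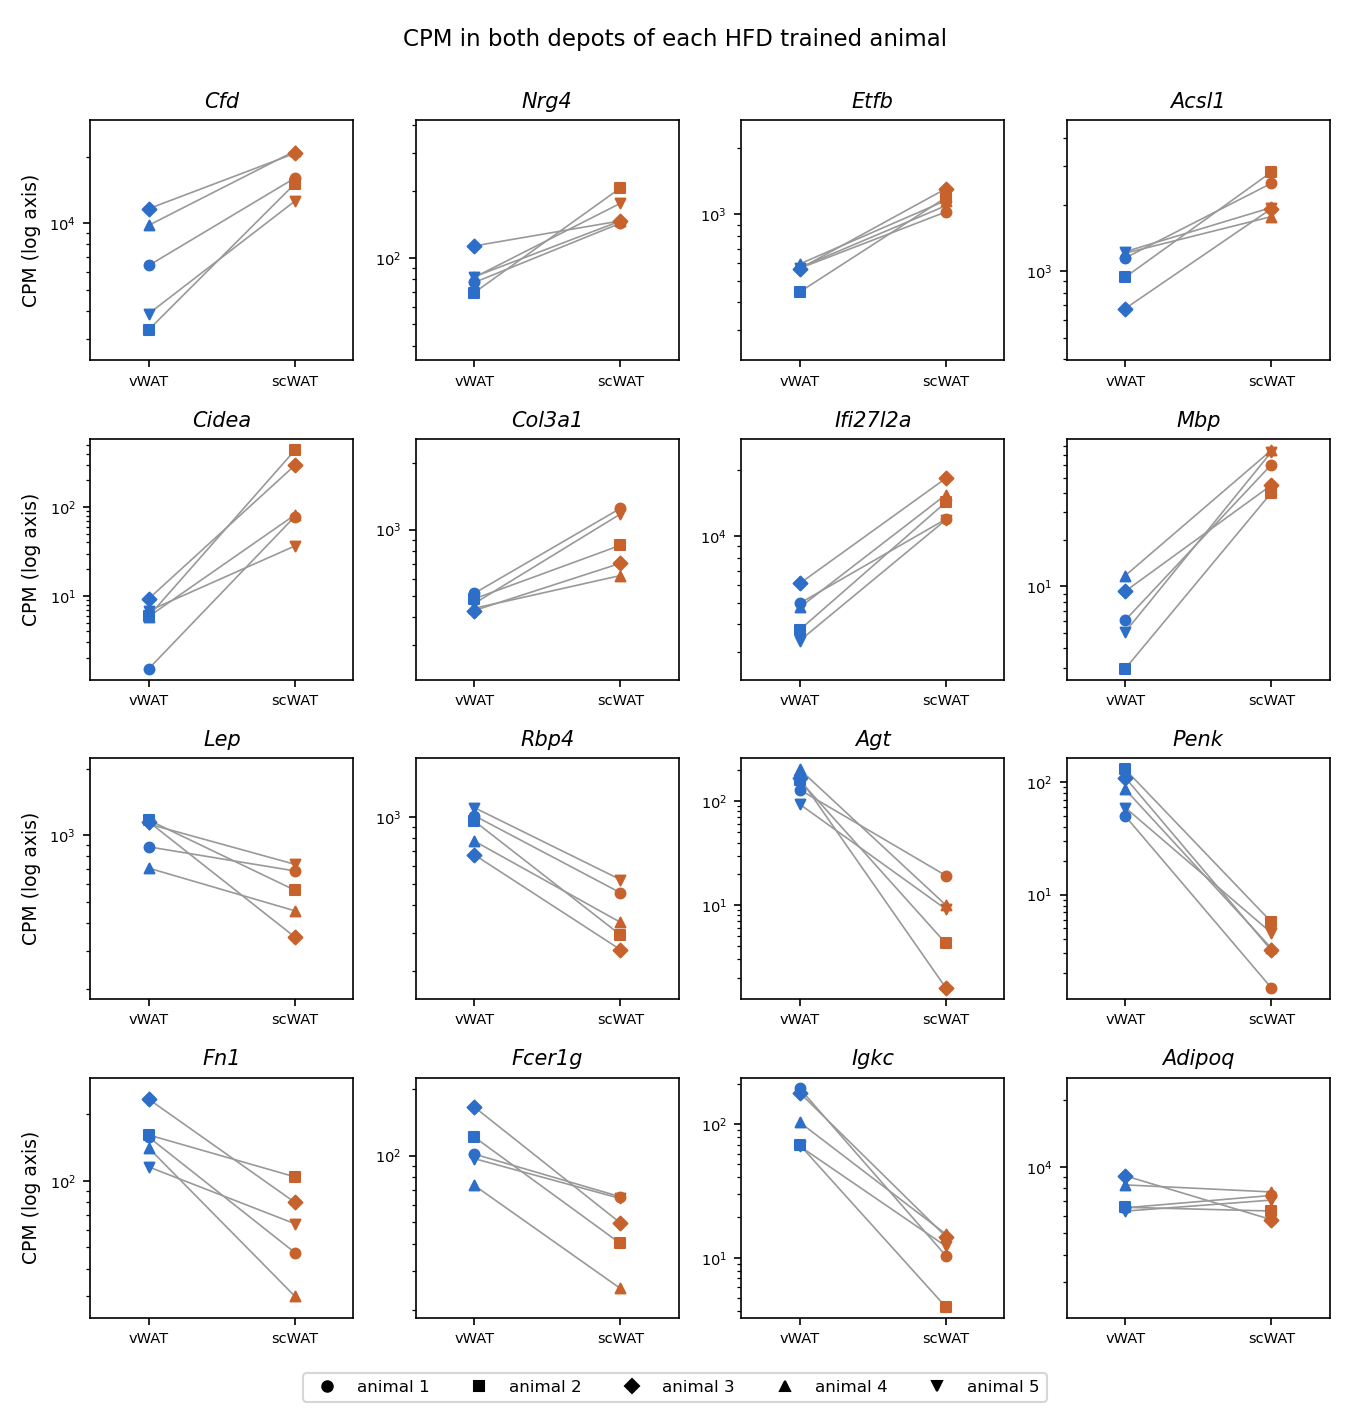
CPM (log axis) of 16 genes in vWAT and scWAT of the 5 HFD trained mice, each line joining the depots of 1 animal and each marker shape standing for 1 animal. The lines rise for Cfd, Nrg4, Etfb, Acsl1, Cidea, Col3a1, Ifi27l2a and Mbp, fall for Lep, Rbp4, Agt, Penk, Fn1, Fcer1g and Igkc, and cross for Adipoq, whose difference was not called.

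Of 26 listed enzymes of fatty acid oxidation, 23 were tested, 15 were called higher and none lower, and the median log2 difference was 0.76, against 0.0011 over all genes tested. Etfb, a subunit of the flavoprotein that takes electrons from acyl-CoA dehydrogenases, had 1027 to 1308 CPM in scWAT and 446 to 597 CPM in vWAT (log2 difference 1.12 ± 0.14, adjusted p = 3.84e-05, edgeR). Acsl1, which activates fatty acids to acyl-CoA, had 2498, 2808, 1917, 1766 and 1941 CPM in scWAT against 1147, 939, 677, 1206 and 1225 CPM in vWAT. Its log2 difference was 1.13, with no overlap between depots. Cpt2, which releases acyl-CoA inside mitochondria, was higher by 0.89.

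Of 23 enzymes of the tricarboxylic acid cycle and its pyruvate entry, 6 were called higher and none lower (median log2 difference 0.465). Ogdh, Sdhb and Mdh2 differed by 0.89, 0.75 and 0.55. The call of Mdh2 was lost without animal 2 or animal 3 (adjusted p up to 0.0667). Of 75 nuclear genes of the respiratory chain, 15 were called higher, among them the complex I subunit genes Ndufs7 (0.66) and Ndufa13 (0.60), and 1, Cox7a2l (-0.58), was called lower, a call lost without animal 2 (adjusted p = 0.0802). The median of that list was 0.30. Of 13 protein genes of the mitochondrial genome, 5 were called higher, with mt-Co1 at a log2 difference of 0.74, and mt-Nd3 was called lower (-0.53), a call lost when any of animals 1, 2, 4 or 5 was left out (adjusted p up to 0.234). Of 21 tested enzymes that break down branched-chain amino acids, 5 were called higher and none lower, with Mccc2 at 0.98.

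These differences were uneven between animals. The median log2 difference of the fatty acid oxidation enzymes was 0.52, 1.34, 1.05, 0.27 and 0.42 in animals 1 to 5, and that of the tricarboxylic acid cycle enzymes 0.37, 1.09, 0.72, 0.07 and 0.13. Animals 2 and 3 were thus highest for both lists. Animals 3 to 5 alone gave 4 calls among the oxidation enzymes and none among the tricarboxylic acid cycle or nuclear respiratory chain genes, whereas animals 1 to 3 alone gave 18, 15 and 18 higher. Calls also fell over all genes, with 177 of 6231 (79 higher) in animals 3 to 5 against 583 of 6361 (263 higher) in animals 1 to 3. Without the 4 libraries with most intestinal reads and without the animal block, the numbers higher in the 3 lists were 12, 4 and 11. In that setting 1 oxidation enzyme was lower, and 292 of all 6345 genes were higher. The share of all counts that came from mitochondrially encoded genes was 13.3% ± 2.20 in scWAT and 11.2% ± 0.468 in vWAT (SD, n = 5), higher in scWAT of 4 of 5 animals (exact sign-flip test, two-sided, p = 0.1875). Without the mitochondrial ribosomal RNA genes it was 10.6% ± 2.12 against 8.05% ± 0.370, higher in 5 of 5 animals, at the smallest p that 5 pairs allow (exact sign-flip test, two-sided, p = 0.0625).

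Cidea, a lipid droplet protein abundant in beige and brown fat, had 78.4, 437, 296, 81.8 and 36.6 CPM in scWAT of animals 1 to 5 and 1.52, 5.92, 9.31, 5.87 and 6.80 CPM in vWAT. It was higher in scWAT of each animal, by 4.88 ± 0.38 on the log2 scale (adjusted p = 8.1e-06, edgeR). In vWAT of animal 1 Cidea lay below the CPM that a count of 0 allows. Without the 4 libraries with most intestinal reads and without the animal block, the log2 difference was 4.65 and the call was lost (adjusted p = 0.149). Ucp1 had 19, 260, 156, 1 and 1 reads in scWAT and 0 in every vWAT library, so animals 2 and 3 held nearly all of its reads. Of 23 listed beige and thermogenic genes 5 passed the filter on low counts, and Cidea was the only one called. Cox8b (log2 difference 3.36, adjusted p = 0.0691), Cox7a1 (1.89, adjusted p = 0.33), Pdk4 (2.12, adjusted p = 0.0558) and Adrb3 (0.08) did not pass. Cox8b and Cox7a1 are also expressed in skeletal muscle, whose marker reads were highest in vWAT of animals 4 and 5 and in scWAT of animal 1, and the part of muscle reads in these values was not tested. Among members below the filter, Otop1 had 38 reads in scWAT and 4 in vWAT, and Prdm16, a transcription factor of the beige programme, had 33 and 5. Prdm16 reads in scWAT of animals 1 to 5 were 5, 4, 9, 6 and 9, with no peak in animals 2 and 3. The fit without the filter called 6 of the 16 members below it, all higher in scWAT. Ucp1 had an adjusted p of 1.08e-67 there (edgeR) despite its uneven reads, so p-values of that fit may be too small at low counts. Over all genes, that fit called 923 of 21580, with 363 higher and 560 lower.

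Among lipid storage genes, Slc27a1, a fatty acid transporter, had 118, 94.3, 133, 202 and 136 CPM in scWAT and 48.6, 34.1, 52.8, 86.6 and 86.7 CPM in vWAT (log2 difference 1.22 ± 0.17, adjusted p = 0.000127, edgeR). Pck1, which makes glycerol phosphate precursors, was higher by 1.04, a call lost without animal 3 (adjusted p = 0.0533). Gpd1 was higher by 1.15, a call lost when any of animals 1 to 4 was left out (adjusted p up to 0.0974). Of 20 tested genes of triglyceride synthesis and lipid uptake, 5 were called higher and 1, Lpl, the lipase that frees fatty acids from lipoproteins, lower (-0.48). The call of Lpl was lost when any of animals 1, 3, 4 or 5 was left out (adjusted p up to 0.179). Of 16 tested genes of lipolysis and the lipid droplet, 6 were called higher and 1, G0s2, an inhibitor of lipolysis, lower (-0.54), a call lost without animal 1, 2 or 4 (adjusted p up to 0.163). Hcar1, the lactate receptor that restrains lipolysis, had 76.8 to 134 CPM in scWAT and 23.3 to 58.7 CPM in vWAT (log2 difference 1.61). Of 18 tested genes of fatty acid synthesis, 3 were higher and 1 was lower, against 4.47% and 5.87% of all genes. Acacb, the acetyl-CoA carboxylase that regulates oxidation, was higher by 1.66. Pgd, of the pentose phosphate pathway, was lower (-0.67), a call lost without animal 1 (adjusted p = 0.0567, edgeR). Fasn, fatty acid synthase, had a log2 difference of -0.08. Of 14 tested genes of insulin signalling and glucose uptake, 5 were higher and none lower. Grb14, an adaptor that inhibits the insulin receptor, differed by 1.47 and the kinase gene Akt2 by 0.91.

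Of 11 tested adipogenic transcription factors, only Cebpa was called (0.92), and its call was lost when any of animals 1 to 4 was left out (adjusted p up to 0.165), while Pparg differed by 0.14 (adjusted p = 0.639). Of 11 genes linked to fat expansion, 3 were lower in scWAT and none higher. Mest, an imprinted gene that marks expanding fat, had 151, 120, 104, 172 and 276 CPM in scWAT and 203, 351, 163, 254 and 449 CPM in vWAT (log2 difference -0.73). Its ranges overlapped although each animal had less in scWAT, and without the animal block the call was lost (adjusted p = 0.203). Cav1, the main protein of caveolae, was lower by 0.62 with 1820 to 2704 CPM against 3398 to 3999 CPM, a call lost without animal 4 (adjusted p = 0.0546).

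**Figure D3:**
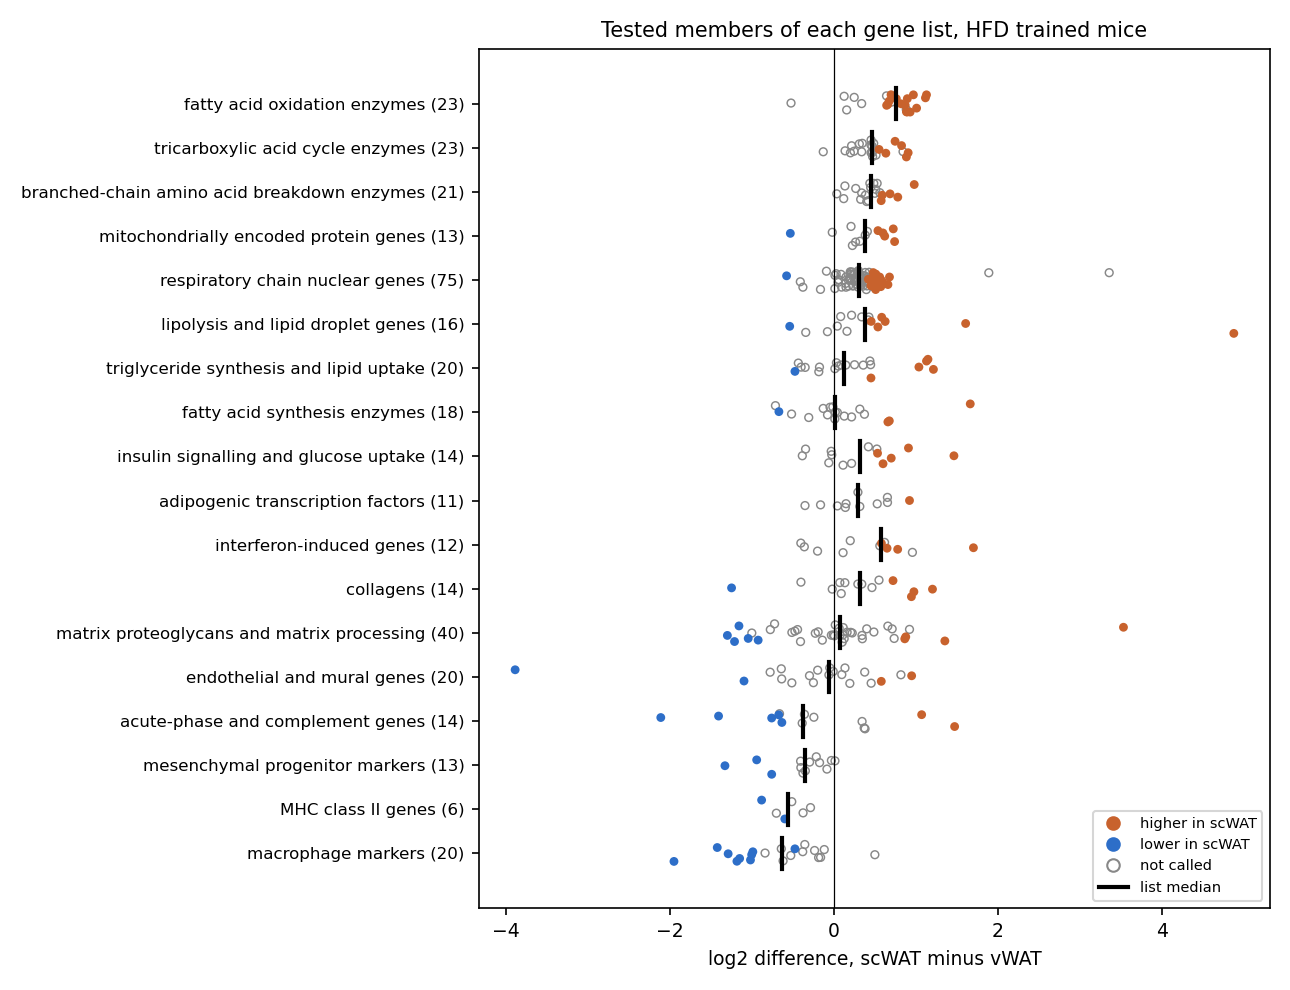
Log2 difference of scWAT minus vWAT (horizontal axis) for each tested member of 18 gene lists, with the number tested in parentheses. Filled orange and blue points are members called higher and lower in scWAT, open points were not called and black bars are list medians; the median is 0.76 for the oxidation enzymes and -0.63 for the macrophage markers.

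Col3a1, a fibrillar collagen, had 1248, 849, 704, 619 and 1176 CPM in scWAT and 514, 486, 430, 440 and 463 CPM in vWAT, and the log2 difference was 0.98 ± 0.15 (adjusted p = 0.000233, edgeR). Col1a1 differed by 0.95, a call lost in the fit of all 40 fat libraries (adjusted p = 0.0853), and the microfibrillar collagen gene Col6a3 by 1.20. Of 14 tested collagen genes 4 were higher and 1 lower, Col14a1 (-1.25), whose call was lost without animal 1 (adjusted p = 0.0538). Col6a5, below the filter, had 33, 26, 51, 24 and 6 reads in vWAT of animals 1 to 5 and a single read in all scWAT libraries together. Among proteoglycans and matrix enzymes, 40 were tested, with 4 higher and 5 lower, against 4.47% and 5.87% of all genes. The matrix metalloproteinase gene Mmp3 had 16.7 to 53.3 CPM in scWAT and 1.47 to 8.89 CPM in vWAT (log2 difference 3.54). Outside animal 2, its vWAT values lay below the CPM that a count of 0 allows, so the size of this difference is uncertain. Pcolce, which enhances procollagen processing, differed by 1.35. Fibronectin, Fn1, had 30.0 to 104 CPM in scWAT and 116 to 234 CPM in vWAT (log2 difference -1.30), and the proteoglycan gene Ogn was lower by 1.21. Dpt, a dermal matrix protein that binds decorin, was higher by 1.43. Of 13 tested progenitor markers, 3 were lower and none higher, with Fmo2 at -1.33 (adjusted p = 0.0552 without the animal block, edgeR) and Cd34 at -0.76. In the fit without the filter on low counts, whose p-values may be too small, 3 of 11 other members were called, against 923 of all 21580 genes. Of these members, Pi16 (1.37) and Cxcl14 (2.19) were higher and Dpp4 (-2.03) was lower in scWAT. The call of Cd34 was lost without animal 3 or animal 4 (adjusted p up to 0.0844).

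Of 28 listed macrophage markers, 20 were tested, 9 were called lower and none higher, and the median log2 difference was -0.63. Lpl, which adipocytes express strongly, counts among these 9. Ctss, a lysosomal protease of antigen-presenting cells, had 53.3, 31.4, 27.2, 21.7 and 33.5 CPM in scWAT and 89.5, 203, 151, 107 and 131 CPM in vWAT, a log2 difference of -1.95 ± 0.23 (adjusted p = 3.79e-05, edgeR). The signalling adaptor genes Fcer1g (-1.15) and Tyrobp (-0.99) and the lysosomal marker Cd68 (-1.42) were likewise lower in every animal. In the fit of all 40 fat libraries, the calls of Ctss, Tyrobp and Cd68 were lost (adjusted p = 0.126, 0.159 and 0.109), that of Fcer1g was not (0.0367), and that of Cd68 was also lost without the 4 libraries with most intestinal reads (adjusted p = 0.0513). Without the 4 libraries with most intestinal reads, 6 macrophage markers were called lower and none higher. By animal, the median was -0.12, -0.71, -0.82, -1.40 and -0.25, so it was smallest in size in animals 1 and 5. Of 6 tested MHC class II genes, 2 were lower, H2-DMa (-0.88) and H2-Ab1 (-0.60), and both calls were lost without animal 2, 3 or 4 (adjusted p up to 0.11 for H2-Ab1 and 0.157 for H2-DMa).

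Igkc, the constant region of the kappa light chain, had 10.4, 4.29, 14.4, 15.0 and 12.2 CPM in scWAT and 184, 69.6, 171, 103 and 68.0 CPM in vWAT (log2 difference -3.31 ± 0.24, adjusted p = 2.79e-08, edgeR). Ighm, the heavy chain of immunoglobulin M, had 299 to 911 CPM in scWAT and 940 to 1995 CPM in vWAT (log2 difference -1.33). In the fit of all 40 fat libraries, the calls of Igkc and Ighm were lost (adjusted p = 0.11 and 0.152), and that of Ighm was also lost without the 4 libraries with most intestinal reads (adjusted p = 0.112). Ighd, another heavy chain gene, which was chosen after its values were seen, had 9 reads in scWAT and 11 in vWAT. Ighm was the only one of 13 B cell markers that passed the filter, and Cd79b had 14 reads in scWAT and 8 in vWAT. The lymphoid chemokine gene Ccl21a had 98.6, 354, 287, 49.9 and 6.80 CPM in vWAT of animals 1 to 5 and 0 to 16.7 CPM in scWAT (log2 difference -3.89), and without the animal block its call was lost (adjusted p = 0.0527). Prox1, a transcription factor of lymphatic endothelium, had 0 reads in scWAT and 20 in vWAT, none of them in animal 5.

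Of 14 tested acute-phase and complement genes, 2 were higher, Cfd and C4b (1.07), and 5 were lower, against 4.47% and 5.87% of all genes. Several of these genes are also expressed in liver, whose marker reads were uneven, and the part of liver reads in their values was not tested. Haptoglobin, Hp, had 1175 to 2001 CPM in scWAT and 2009 to 3295 CPM in vWAT (log2 difference -0.76). Interferon-induced genes were higher in scWAT in 4 of 12 tested and lower in none, with a median log2 difference of 0.57. Ifi27l2a, among the most abundant interferon-induced transcripts, had 11972, 14280, 18325, 15437 and 11878 CPM in scWAT and 4977, 3775, 6118, 4766 and 3371 CPM in vWAT (log2 difference 1.70 ± 0.16, adjusted p = 9.44e-07, edgeR). Lgals3bp, a secreted glycoprotein, was higher by 0.78. The call of Rtp4 (0.65) was lost without animal 1, 2, 3 or 5 (adjusted p up to 0.146).

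Of 51 genes on the list of positional regulators, 8 passed the filter and 3 were called, all lower in scWAT: Hoxb2 (-1.29), Thbd (-0.99) and Gpc4 (-0.96). Of the 3, only Hoxb2 belongs to the Hox or T-box families. The call of Hoxb2 was lost without animal 1 or 2, that of Thbd without animal 3 and that of Gpc4 without animal 1, 2 or 4 (adjusted p up to 0.155). Hoxc8 did not pass the test (0.11, adjusted p = 0.819). Below the filter, Hoxa10 had 13, 15, 15, 5 and 7 reads in scWAT of animals 1 to 5 and 1, 0, 0, 1 and 0 in vWAT. Hoxc10 had 43 reads in all scWAT libraries and 1 in vWAT, Shox2 had 41 and 2, and Tbx15 had 18 and 3. The reverse held for Wt1 and Tcf21, regulators of visceral mesoderm, which had 0 reads in every scWAT library and 22 and 29 reads in vWAT. A fit without the filter tested these genes among 21580, and its adjusted p (edgeR) was 1.03e-09 for Hoxa10, 1.16e-07 for Hoxc10, 1.9e-06 for Shox2, 0.00107 for Wt1, 7.87e-05 for Tcf21 and 0.13 for Tbx15. Of the 40 members below the filter that fit called 6, with 4 higher and 2 lower in scWAT, so most members were not called. Over all 21580 genes it called 923, with 363 higher and 560 lower. The same fit gave Ucp1 an adjusted p of 1.08e-67 (edgeR), although its reads in scWAT ran from 1 to 260. The p-values of that fit may thus be too small, and its calls too many, for genes with so few reads.

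Mesothelial genes had a similar split. Upk3b had 18, 34, 26, 10 and 1 reads in vWAT of animals 1 to 5, Slpi, a secreted protease inhibitor, had 13, 74, 50, 36 and 1, and both had 0 in scWAT. Of 20 listed mesothelial genes only the tight-junction gene Cldn15 passed the filter. It was higher in scWAT (0.69), and its call was lost when any of animals 1, 2, 4 or 5 was left out (adjusted p up to 0.0916). Mbp, a main protein of myelin, had 60.7, 40, 44.8, 75.1 and 73.1 CPM in scWAT and 6.07, 2.96, 9.31, 11.7 and 5.10 CPM in vWAT (log2 difference 3.06 ± 0.28, adjusted p = 6.86e-07, edgeR). The glial marker S100b, below the filter, had 78 reads in scWAT and 13 in vWAT.

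**Figure D4:**
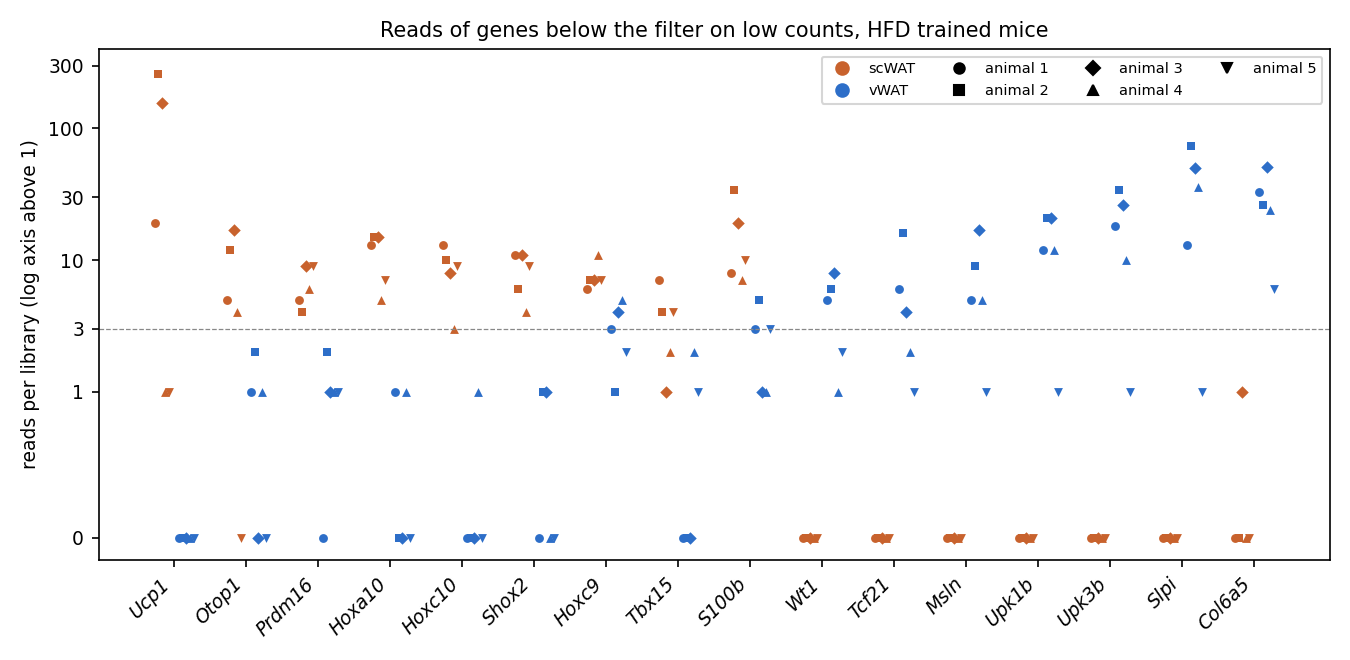
Reads per library (vertical axis, logarithmic above 1) of 16 genes that did not pass the filter on low counts, with orange points for scWAT, blue points for vWAT and a marker shape for each animal; the dashed line marks 3 reads, the number that a count of 0 allows. Ucp1 reads lie in scWAT of animals 2 and 3 for the most part, Hoxa10, Hoxc10 and Shox2 have at most 1 read per vWAT library, and Wt1 to Slpi have 0 in scWAT.

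Of 20 tested endothelial and mural genes, 2 were higher and 2 lower, against 4.47% and 5.87% of all genes, and their median log2 difference was -0.056. Reads summed over the list came to a mean of 1290 CPM in scWAT and 1699 CPM in vWAT, and were lower in scWAT of all 5 animals. The sum includes the 2 members called lower, the lymphoid chemokine gene Ccl21a and the smooth muscle gene Acta2. Smooth muscle actin, Acta2, had 98.5 to 162 CPM in scWAT and 167 to 407 CPM in vWAT (log2 difference -1.10), a call lost in the fit of all 40 fat libraries (adjusted p = 0.23), while Kdr, the main receptor of the growth factor VEGF, differed by 0.58, a call lost without animal 1, 3 or 5 (adjusted p up to 0.103). Of 8 tested circadian clock genes, 3 were higher and none lower. Per3 had 41.4 to 70.1 CPM in scWAT and 20.7 to 40.8 CPM in vWAT (log2 difference 0.88), while the call of Nr1d1 (0.66) was lost without animal 2 or animal 4 (adjusted p up to 0.082) and that of Dbp (0.70) without any single animal (adjusted p up to 0.174). Among steroid and retinoid handling genes, Rarres2, the chemerin gene, was higher by 0.79, and the metallothionein gene Mt2 (-1.53) and the retinal dehydrogenase gene Aldh1a1 (-1.11) were lower, the latter call being lost without animal 2 (adjusted p = 0.0538). None of 11 tested cholesterol synthesis genes was called, nor any of 12 skeletal muscle and 7 liver markers. Red blood cell markers were lower in 2 of 5, Hba-a1 (-0.67) and Hbb-bt (-0.73), whose calls were lost when any of animals 1 to 4 was left out (adjusted p up to 0.261), and both have near-identical gene copies.

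The same contrast in the other 3 groups of mice, which are different animals, was set beside these results. Of the 643 genes, 616 were tested in HFD sedentary mice, where 592 had the same direction (96.1%, against 71.0% of all genes tested in both), and 285 were called there in that direction, where 9.07% of all genes tested were called in either direction. In chow trained mice, 469 of 590 had the same direction (79.5%, against 62.2%) and 155 were called, with 6.41% of all genes called. In chow sedentary mice, 522 of 606 had it (86.1%, against 65.2%) and 209 were called, with 9.2% of all genes called. Called in all 4 groups in the same direction were 76 genes, 18 higher and 58 lower in scWAT, including Etfb and Acsl1 among the higher and Penk, Agt, Rbp4, Prdx6, Lep, Fn1, Hp and Mt2 among the lower.

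A direct test of the difference between depot differences called 0 of 7931 genes against HFD sedentary mice (edgeR, all 40 fat libraries, 343 genes at an unadjusted p below 0.05, lowest adjusted p 0.161, 0%), and limma voom also called 0, while DESeq2 called 3. Against chow trained mice, 43 of 7931 genes were called (0.542%), of which 33 (0.416%) had a depot difference more toward scWAT in HFD trained mice and 10 (0.126%) less. Lgals12, a galectin of adipocyte lipid droplets, had 203 ± 25.2 CPM in scWAT and 96.2 ± 32.6 in vWAT of HFD trained mice, but 85.6 ± 27.1 and 134 ± 24.1 in chow trained mice (mean ± SD, n = 5), and the depot differences differed by 1.72 ± 0.28 on the log2 scale (adjusted p = 0.00272, edgeR). Ifi27l2a had 14379 and 4602 CPM in HFD trained mice and 2617 and 2342 CPM in chow trained mice, with depot differences that differed by 1.41. The depot differences of the imprinted gene Nnat differed by 2.05 and those of Ces1f by 1.82. Nnat lies within Blcap, whether strand was used in counting is not stated, and reads of the pair cannot be told apart. For Nnmt (1.02) and the noncoding RNA Snhg18 (1.26), the genes did not pass the depot test in HFD trained mice, at log2 differences of 0.09 and 0.14, and were called lower in scWAT in chow trained mice, at -0.93 and -1.10. Mest, lower in scWAT in each group, was lower by 2.51 in chow trained mice, and the depot differences differed by 1.79. Cfd did not pass the depot test in chow trained mice (log2 difference 0.13), and its depot differences differed by 1.36.

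Among the 10 genes with a lower depot difference were the B cell genes Ighd, Blnk and Iglc3. scWAT of chow trained animals 2, 4 and 5 held 403 to 853 reads of lymph node genes, against at most 16 in any HFD trained scWAT library. A fit without those 3 animals also left out chow sedentary animals 2, 4 and 5, whose scWAT held 438 to 1108 such reads. It kept 2 chow trained mice and called 1 gene, which was not among the 43. In that fit the 6 of the 43 with the lowest adjusted p before had an adjusted p of 0.135 to 0.307 (edgeR). Their differences then lay between 1.01 and 1.47. Without the animal block 6 genes were called, and leaving out HFD trained animal 2 left 9.

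**Figure D5:**
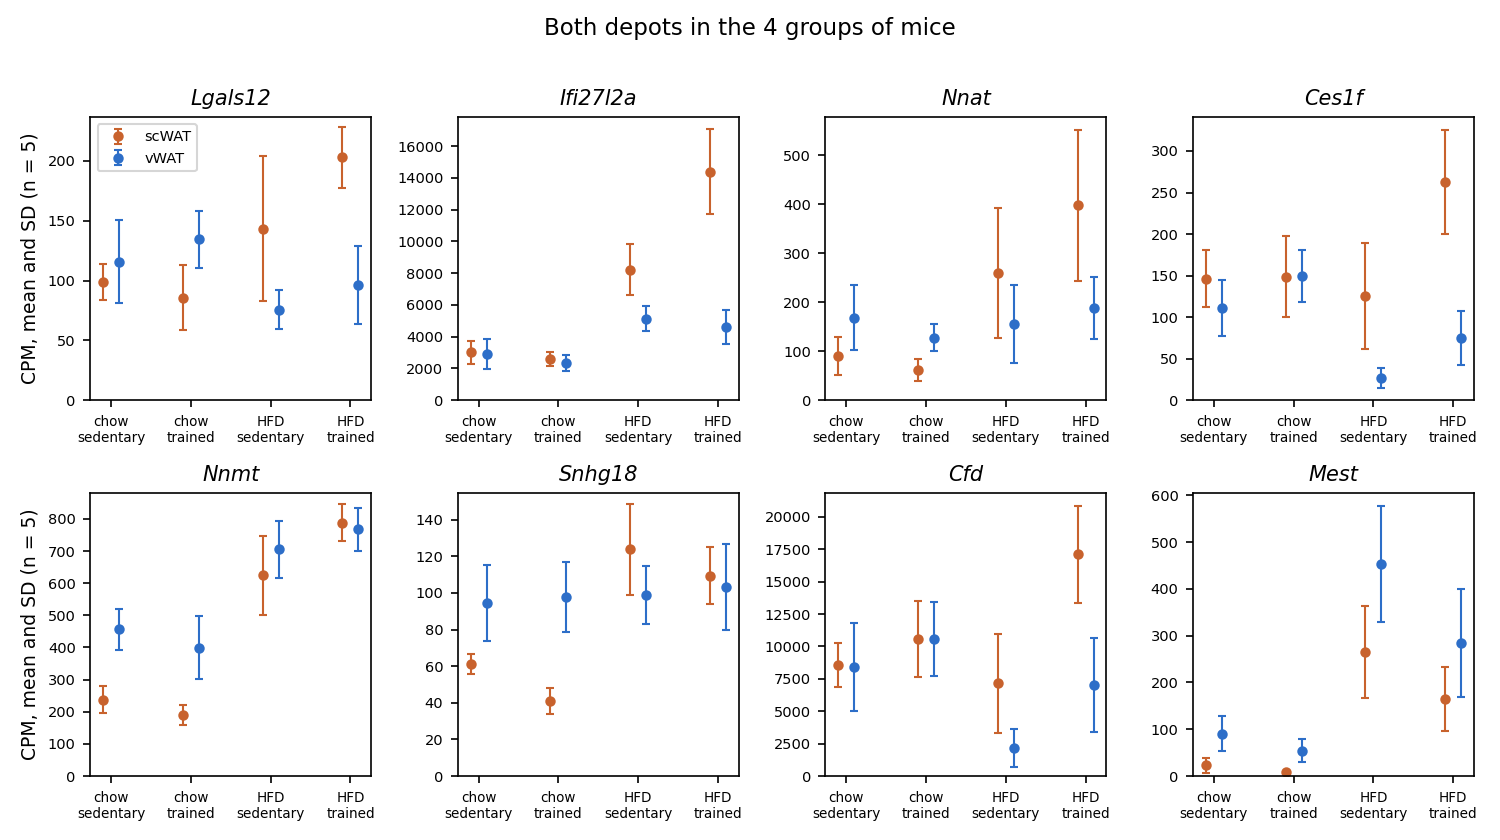
CPM of 8 genes in scWAT (orange) and vWAT (blue) of the 4 groups of mice, as means with SD over 5 libraries. Ifi27l2a, Cfd, Ces1f and Lgals12 lie higher in scWAT than in vWAT in HFD trained mice, with means of 14379 against 4602 CPM for Ifi27l2a, and are close to or below vWAT in chow trained mice.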

How the data were processed

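RNA of scWAT, vWAT and triceps was profiled by 3′ digital gene expression, and this comparison uses the fat libraries of 4 groups of 5 mice. The deposited table holds estimated counts that are whole numbers, made with Salmon 0.14.2 on mm10 per the submitters' processing notes, and log2 values by the authors, whose back-transformed sums are 1000000 in each library and which were not used. Of 54352 genes, 26846 had no count in any library, and 259 had no symbol. Coordinates come from GENCODE vM21 (mm10).

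Counts were tested with edgeR 4.0.16 in R 4.3.3: TMM scaling, the default filter on low counts by group, a robust quasi-likelihood fit with the animal as a block, and Benjamini-Hochberg adjustment, with genes called below 0.05. The labels give both depots of a mouse the same animal code, so the depots are paired by design, although residuals of the same animal's depots correlated at -0.14 to 0.09. The depot difference was compared between groups in 1 fit of 40 libraries. CPM are counts per 1000000 of all counts of a library, without TMM. On simulated data of the depot comparison (5944 genes), 80.6% of genes changed by 1 on the log2 scale and 99.0% of genes changed by 2 were called, as were 5 of 5746 unchanged genes. DESeq2 1.42.0, limma 3.58.1 and other filters, scalings and sets of animals were tried as alternatives. Of 120 pairs of libraries within groups, 0 had identical counts, and likeness short of identity was not examined.

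Named genes are up to 12 higher and 12 lower called genes, in order of adjusted p, whose log2 difference was at least 1 in size, with a mean log2 CPM of at least 4 and 1 direction in all 5 animals, up to 4 called members of each gene list, a set of watched genes, and up to 6 called genes of each comparison between groups. Genes named as the exceptions of a list, and genes below the filter, were chosen after their values were seen. The gene lists and members were chosen with earlier results of these data known. Some genes are not reported here.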

Additional observations from a re-analysis of the deposited data

Results flagged for a closer look

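Among 242 groups of 5 libraries examined over the named genes, 18 held a library far from the other 4 by Dixon's test, and chance gives about 1 in 20. Net1 stood at 116 CPM in vWAT of animal 2, against 68.3 to 79.2 in the other 4. In vWAT of animal 2, Mmp3 had 8.89 CPM, and the other 4 libraries had 1.47 to 1.7. Etfb stood at 446 CPM in vWAT of animal 2, against 568 to 597 in the other 4. In vWAT of animal 5, Trarg1 had 128 CPM, and the other 4 libraries had 93.3 to 103. Prdx6 stood at 474 CPM in scWAT of animal 5, against 329 to 363 in the other 4. In scWAT of animal 1, Ndufa13 had 657 CPM, and the other 4 libraries had 792 to 815. Gpd1 stood at 393 CPM in vWAT of animal 5, against 188 to 205 in the other 4. In vWAT of animal 4, Hcar1 had 58.7 CPM, and the other 4 libraries had 23.3 to 32.3. Plin1 stood at 220 CPM in scWAT of animal 4, against 101 to 133 in the other 4. In vWAT of animal 3, Nrg4 had 113 CPM, and the other 4 libraries had 69.6 to 82.2. Cebpa stood at 129 CPM in vWAT of animal 5, against 43.5 to 67.5 in the other 4. In scWAT of animal 4, Tyrobp had 26.7 CPM, and the other 4 libraries had 54.3 to 65.1. Nr1d1 stood at 88.5 CPM in scWAT of animal 4, against 72.5 to 74.6 in the other 4. In vWAT of animal 3, Hba-a1 had 1014 CPM, and the other 4 libraries had 443 to 598. Hbb-bt stood at 1256 CPM in vWAT of animal 3, against 546 to 723 in the other 4. In scWAT of animal 1, Igtp had 71 CPM, and the other 4 libraries had 30.5 to 41.4. Hoxc10 stood at 1.47 CPM in vWAT of animal 4, against 0 in the other 4, which is 1 read and fewer than the 3 that a count of 0 allows. In scWAT of animal 4, Hoxc9 had 18.4 CPM, and the other 4 libraries had 8.88 to 11.2.

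For 10 genes named in the depot comparison or in the comparison with chow trained mice, the depot difference (scWAT minus vWAT, log2) differed between HFD trained and chow trained mice (edgeR, adjusted p over all genes). Ifi27l2a differed by 1.411, with an SE of 0.227 and an adjusted p of 0.00272. Slc1a3 differed by 1.392, with an SE of 0.278 and an adjusted p of 0.0136. Cfd differed by 1.355, with an SE of 0.279 and an adjusted p of 0.0182. Ces1f differed by 1.821, with an SE of 0.312 and an adjusted p of 0.00577. Mest differed by 1.785, with an SE of 0.35 and an adjusted p of 0.0124. Rarres2 differed by 1.027, with an SE of 0.195 and an adjusted p of 0.00932. Lgals12 differed by 1.721, with an SE of 0.278 and an adjusted p of 0.00272. Nnat differed by 2.05, with an SE of 0.33 and an adjusted p of 0.00427. Nnmt differed by 1.025, with an SE of 0.188 and an adjusted p of 0.00744. Snhg18 differed by 1.259, with an SE of 0.229 and an adjusted p of 0.00744. A further fit left out the 3 chow trained mice whose scWAT held lymph node reads, and for the same reason chow sedentary animals 2, 4 and 5. In it 2 chow trained mice remained. The differences of these 10 genes then lay between 0.78 (Slc1a3) and 1.53 (Mest), with adjusted p of 0.135 to 0.493.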

How the results depend on the processing

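The 643 calls became 332 with DESeq2 (144 higher, 188 lower) and 177 in animals 3 to 5 alone (79 and 98). Asking for a log2 difference of at least 1 left 184, and without the filter on low counts 560 genes were lower. Leaving out 1 animal gave 340 to 674 calls (153 to 293 higher, 187 to 381 lower), fewest without animal 2. With the animal as a block, as reported, 643 genes were called, and without the block 610 (279 higher, 331 lower), of which 556 were shared. Total counts in place of TMM gave 225 higher and 435 lower. The difference from HFD sedentary mice gave 3 calls (2 higher, 1 lower) with the 20 libraries of both groups and 3 (2 and 1) with DESeq2. The 43 calls against chow trained mice became 6 without the block (6 higher, 0 lower), 9 to 34 on leaving out 1 animal (9 to 30 higher, 0 to 6 lower), and 1 without the chow mice with lymph node reads (1 higher, 0 lower). DESeq2 gave 17 lower there. Of 100 named genes called, 70 kept their call without each animal and 38 under every alternative run. Their calls lost were 41 in animals 3 to 5, 27 without the 4 libraries with most intestinal reads, 25 in the fit of all 40 fat libraries, 14 without the block and 13 with DESeq2. Uncalled genes changed sign: Adipoq lay between -0.11 and 0.091 and Hoxc8 between -0.015 and 0.22 on leaving out 1 animal, Pparg was at -0.074 in animals 3 to 5 and -0.10 without the 4 libraries with most intestinal reads, and Snhg18 was at -0.025 in animals 1 to 3. The cause of these changes was not tested. A fit with sequencing stretch as a term was not run, since depots share none. At 587956 to 699712 counts per library, many positional and mesothelial genes stayed below the filter. The settings with subsets of animals or libraries were chosen after seeing the data.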

Other observations

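Some gene sets outside the lists were picked after their values were seen. Of 82 tested genes of the cytosolic ribosome, 42 were called lower in scWAT and none higher, with a median log2 difference of -0.478. Rps15a differed by -0.95 and Rpl30 by -0.89. The median was -0.403 in HFD sedentary mice, 0.096 in chow trained mice and -0.058 in chow sedentary mice. Ribosomal protein genes have many pseudogene copies, so their counts depend on how reads were divided.

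Of 7 tested heavy chains of MHC class I, which present peptides to T cells, 5 were higher in scWAT and none lower (median log2 difference 0.658), among them H2-Q7 (1.26) and H2-K1 (0.66). These paralogs are nearly identical and their counts are uncertain. Of 5 tested genes of immunoproteasome subunits and activators, 4 were higher and none lower (median log2 difference 0.578). Psmb8, a subunit that cuts those peptides, was at 0.97 and the activator gene Psme2 at 0.45. Of 12 tested interferon-inducible GTPases, 5 were higher and none lower (median 0.612), with Gbp6 at 1.67 and Igtp at 1.26. In scWAT, animal 1 had the most Gbp6 (102 CPM, 33.4 to 58.6 in the others) and Igtp (71.0, 30.5 to 41.4). Iigp1, Irgm1 and Irgm2 also peaked there, while Gbp7, Gbp9 and Gvin1 peaked in other animals. In HFD sedentary mice the set medians were 0.057 for class I, -0.054 for the immunoproteasome and 0.215 for the GTPases. In chow trained mice they were 0.497, 0.408 and 0.408, and in chow sedentary mice 0.375, 0.233 and 0.462.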
